A study of Mus musculus with 2 samples.

Results

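The HCN pacemaker channels were described through 3 genes, Hcn2, Hcn3 and Hcn4, taken by symbol from the gene rows of the deposited matrices, which held 39098 gene symbols in all. The study collected single cells of the right trigeminal ganglion (TG), the ganglion that holds the sensory neurons of the face, from male C57BL/6 mice aged 5 to 8 weeks, to compare gene expression with and without orofacial inflammatory pain. The control group received saline and the CFA group received 20 µL of complete Freund's adjuvant, an emulsion that causes local inflammation, in the right vibrissal pad, and ganglia were taken 7 days later. The control is untreated in its GEO labels, where the study's methods describe saline. Each group had 6 mice, but each condition is represented by a single whole transcriptome library made on the BD Rhapsody platform, and how many mice went into it is not given in the sources used here. A difference between the control library and the CFA library therefore cannot be told apart from a difference between animals or preparations, and all intervals below cover counting error only.

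HCN channels open when the membrane becomes more negative than rest, and carry an inward current of sodium and potassium that brings a cell back towards firing threshold. Direct binding of cyclic AMP (cAMP) to the channel makes HCN2 and HCN4 open more readily, whereas HCN3 responds little to cAMP. In sensory neurons HCN currents are known to regulate repetitive firing, and HCN2 in nociceptors has been studied for its part in inflammatory pain. HCN4 is the main pacemaker channel of the sinoatrial node of the heart.

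On mouse build GRCm38 with GENCODE M21, Hcn2 lies on the plus strand at chr10:79716634-79736108, Hcn3 on the minus strand at chr3:89146074-89160196 and Hcn4 on the plus strand at chr9:58823412-58863175, each with 8 exons in its longest coding transcript. The 3' end of Hcn3 overlaps the 3' end of the convergent gene Pklr by 711 bases. Hcn2 ends 14 bases from the 3' end of the convergent gene Polrmt, and no annotated gene overlaps Hcn4. The strand setting of the counting is not given in the sources used here, so reads in the shared stretch of Hcn3 and Pklr may not be assignable. Pklr itself had 14 UMIs (unique molecular identifiers, 1 per captured RNA molecule) in control neurons and 5 in CFA neurons, against 1452 and 606 for Hcn3.

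To let the 3 transcripts be compared, the coding stretch around the pore selectivity filter is shown here from the annotated transcripts, with the 9 bases that encode its glycine-tyrosine-glycine in capitals. The stretches are 5′ to 3′ on the coding strand, and all lie in exon 4, for Hcn2 at chr10:79728941-79728985, for Hcn3 at chr3:89150988-89151032 and for Hcn4 at chr9:58855573-58855617.
Hcn2: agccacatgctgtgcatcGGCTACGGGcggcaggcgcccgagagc
Hcn3: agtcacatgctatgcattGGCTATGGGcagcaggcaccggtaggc
Hcn4: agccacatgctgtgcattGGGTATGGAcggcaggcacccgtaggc
Of these 45 bases, 35 were identical between Hcn2 and Hcn3, 37 between Hcn2 and Hcn4 and 39 between Hcn3 and Hcn4.

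After cells with fewer than 150 genes or over 25% mitochondrial counts were left out, 6695 control cells and 3661 CFA cells remained, of which 828 and 427 passed the neuron gate, with a median of 43495.5 and 35206 UMIs per neuron. The 2 libraries shared 27 cell barcodes. Neurons were placed in 6 classes by raw UMIs of single marker genes. Trpm8, the cold and menthol receptor, marked 49 control and 25 CFA neurons (at least 3 UMIs), Mrgprd, a receptor of non-peptidergic nociceptors, marked 163 and 63 (at least 5 UMIs), and P2ry1, a purinergic receptor, marked 65 and 40 (at least 10 UMIs and under 20 UMIs of Nefh). The others were split by Nefh, the heavy neurofilament of myelinated neurons, and Calca, which encodes the peptide CGRP, into 23 and 13 Nefh+ Calca-low neurons, 27 and 7 Nefh+ Calca+ neurons and 379 and 191 Calca+ Nefh-low neurons. Another 122 control and 88 CFA neurons passed no gate. These ungated neurons were shallow, with median depths of 8655 and 10112 UMIs. The gates are on raw UMIs, so depth enters them, and the Nefh+ Calca+ neurons were the deepest, with medians of 75227 and 85657 UMIs. Trpm8 read 199 and 245 CPM (counts per 1000000 UMIs) in its own class and at most 5.84 CPM in the other 5 classes, while the Trpm8 class also carried Nefh at 1324 and 1464 CPM. The large-fibre markers Pvalb, Ntrk3 and Spp1 summed to 331 and 541 CPM in Nefh+ Calca-low neurons, 235 and 202 CPM in Trpm8 neurons and 215 and 214 CPM in P2ry1 neurons. Of these markers Pvalb read 21 and 3.89 CPM in Nefh+ Calca-low neurons against 173 and 161 CPM in Trpm8 neurons. Spp1 read 44.8 and 173 CPM in Nefh+ Calca-low neurons and 0.387 and 0 CPM in Trpm8 neurons. In P2ry1 neurons the sum was nearly all Ntrk3, at 215 and 214 CPM, with Pvalb and Spp1 each at 0.260 and 0 CPM. The P2ry1 class, gated to be low in Nefh, held Nefh at 80.2 and 88.8 CPM, so the sum does not mark it as large-fibre.

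Most UMIs of all 3 genes lay in neurons, which held 80.1% (control) and 77.7% (CFA) of all UMIs of kept cells. Neurons held 95.9% of the Hcn3 UMIs of all kept control cells and 98.1% in the CFA library, and 97.5% and 98.5% of the Hcn4 UMIs, but 84.3% and 62.5% of the Hcn2 UMIs. The Hcn2 share was thus near that of all UMIs in the control library and below it in the CFA library. In all neurons Hcn2 stood at 29.1 CPM in the control library (95% Poisson interval 27.4 to 30.9, 1125 UMIs) and at 33.9 CPM in the CFA library (31.2 to 36.8, 571 UMIs). Hcn3 stood at 37.6 CPM (35.7 to 39.6, 1452 UMIs) and 36.0 CPM (33.2 to 39.0, 606 UMIs), and Hcn4 at 39.0 CPM (37.1 to 41.0, 1507 UMIs) and 31.4 CPM (28.8 to 34.2, 528 UMIs). With both libraries summed, the level in all neurons over that in the 4 glial types together was a log2 ratio of 2.85 (2.43 to 3.31) for Hcn3, 3.32 (2.82 to 3.86) for Hcn4 and -0.92 (-1.06 to -0.77) for Hcn2, which turned to 1.76 when oligodendrocyte-like cells were left out of the glia (added after the data were seen). CPM is not per length, so levels are compared across classes for 1 gene and not between genes.

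**Figure D1:**
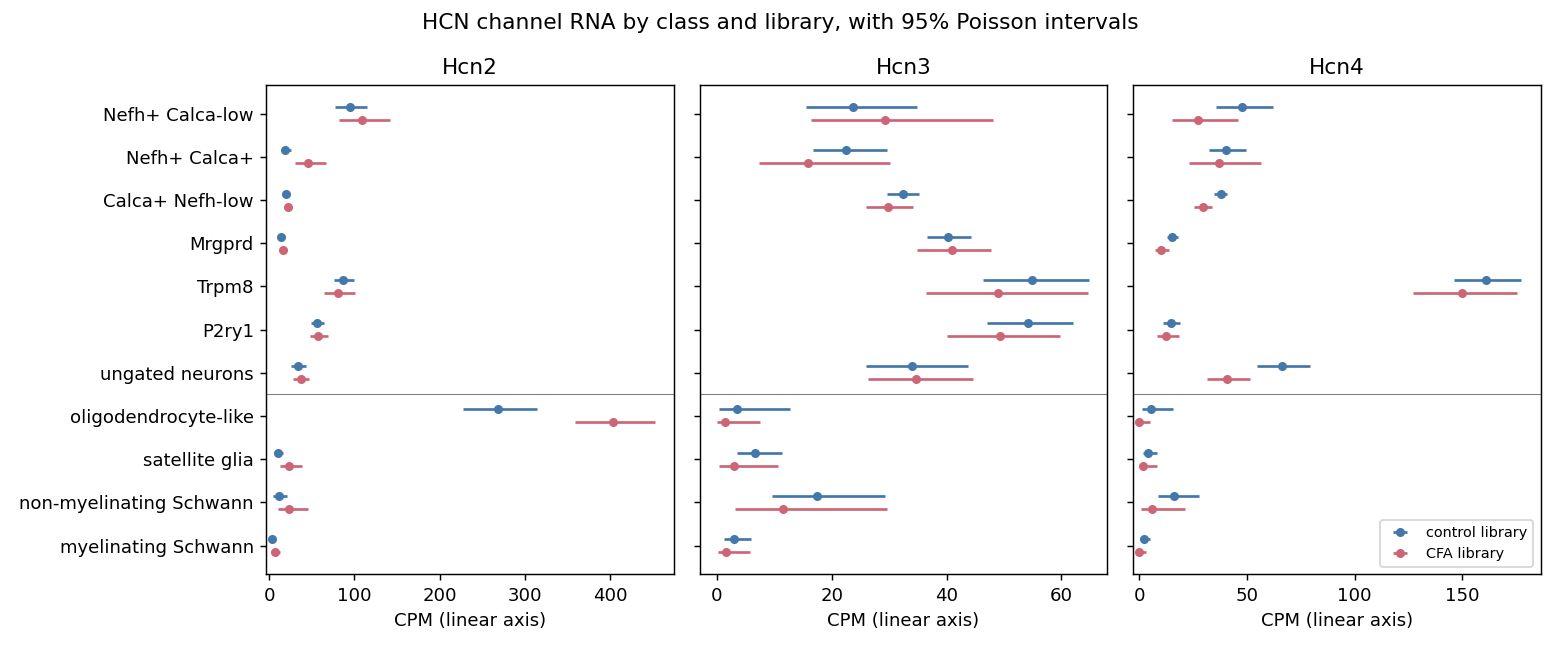
CPM of Hcn2, Hcn3 and Hcn4 (linear axes, 1 panel per gene) in the 6 neuron classes, the ungated neurons and 4 glial types of the control and CFA libraries, where points are summed-count levels and bars are 95% Poisson intervals. Hcn4 lies at 161 and 150 CPM in Trpm8 neurons and below 70 CPM elsewhere, Hcn2 is highest in oligodendrocyte-like cells (268 and 404 CPM), and Hcn3 varies least among the neuron classes.

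Hcn4, the slowest-opening pacemaker channel of the family, was highest in Trpm8 neurons in both libraries. It read 161 CPM (146 to 178, 417 UMIs in 49 cells) in the control library and 150 CPM (127 to 176, 153 UMIs in 25 cells) in the CFA library. The next gated class was Nefh+ Calca-low in the control library (47.5 CPM) and Nefh+ Calca+ in the CFA library (37.0 CPM). The ungated neurons stood higher than these, at 66.3 CPM (54.9 to 79.5) and 40.5 CPM (31.5 to 51.3). The interval of the Trpm8 class lay above every other class and the ungated neurons in both libraries. Against all other gated neurons, the Trpm8 class was 5.69-fold higher in the control library (log2 2.51, 95% interval 2.34 to 2.67) and 6.91-fold higher in the CFA library (log2 2.79, 2.50 to 3.07). Trpm8 neurons made up 5.92% and 5.85% of neurons and held 27.7% and 29.0% of the neuronal Hcn4 UMIs.

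Within the Trpm8 class, the Hcn4 UMIs per cell ran from 0 to 31 with a median of 7 in the control library, and from 0 to 17 with a median of 5 in the CFA library. Hcn4 was detected in 48 of 49 control cells (98.0%, Clopper-Pearson 95% interval 89.1 to 99.9%) and in 23 of 25 CFA cells (92.0%, 74.0 to 99.0%). After every neuron was thinned to 5000 UMIs, it was still detected in 26 of 49 and 12 of 24 Trpm8 neurons, against 5 of 65 and 1 of 40 P2ry1 neurons. The thinned intervals of the Trpm8 class were 38.3 to 67.5% and 29.1 to 70.9%. They did not meet those of the P2ry1 class, 2.54 to 17.0% and 0.0633 to 13.2%, or of the Mrgprd and Calca+ Nefh-low classes. They overlapped those of Nefh+ Calca-low neurons, 13.2 to 52.9% (7 of 23) and 9.09 to 61.4% (4 of 13). They also overlapped those of Nefh+ Calca+ neurons, 8.62 to 42.3% (6 of 27) and 0.361 to 57.9% (1 of 7). At this depth the shares did not separate the Trpm8 class from the small Nefh+ classes. In the fibroblasts, which should lack Hcn4, 0.170% of control and 0.265% of CFA cells had a UMI, at median depths of 1721 and 1271 UMIs.

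The level of Hcn4 rose with the number of Trpm8 UMIs in the cell. The steps from 3 UMIs up are the Trpm8 class itself, split by its UMIs, so they are not independent of the class contrast. In the control library it was 28.8 CPM in neurons with no Trpm8 UMI, 56.9 CPM with 1 to 2, 141 CPM with 3 to 9 and 177 CPM with 10 or more. In the CFA library the same steps read 22.3, 62.7, 149 and 150 CPM, so the last step was flat there. Neurons with 10 or more Trpm8 UMIs numbered 22 and 9. Hcn2 rose over the same steps from 24.8 to 102 CPM and from 30.0 to 95.8 CPM, and Hcn3 ran from 36.7 to 55.1 CPM and from 34.8 to 66.4 CPM with no steady order between.

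The Trpm8 neurons with at least 20 Nefh UMIs, 39 and 20 cells, held Hcn4 at 161 and 158 CPM, and the 10 and 5 without held it at 166 CPM (123 to 220) and 91.2 CPM (45.5 to 163). Trpm8 neurons with at least 100 Calca UMIs were few, 8 and 2 cells, with Hcn4 at 70.3 CPM (48.1 to 99.3) and 68.6 CPM (22.3 to 160), while the 41 and 23 without stood at 181 CPM (163 to 200) and 156 CPM (132 to 183). The intervals of the Calca split did not overlap in the control library but did in the CFA library. These splits were chosen after the class values were seen.

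Outside the Trpm8 class, Hcn4 fell into a middle and a low group of classes. The middle group was Nefh+ Calca-low at 47.5 CPM (35.5 to 62.3) and 27.3 CPM (14.9 to 45.7), Nefh+ Calca+ at 40.5 CPM (32.5 to 49.7) and 37.0 CPM (22.9 to 56.5), and Calca+ Nefh-low at 37.7 CPM (34.8 to 40.9) and 29.4 CPM (25.5 to 33.7). No neighbours within it differed beyond counting error. The low group was the Mrgprd class at 15.2 CPM (13 to 17.7) and 10.2 CPM (7.34 to 13.9) and the P2ry1 class at 14.6 CPM (11 to 18.9) and 12.6 CPM (8.20 to 18.4), which did not differ from each other either. The control Trpm8 class held 11.1 times (8.36 to 14.9) the Hcn4 level of the P2ry1 class and 10.6 times (8.85 to 12.8) that of the Mrgprd class.

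**Figure D2:**
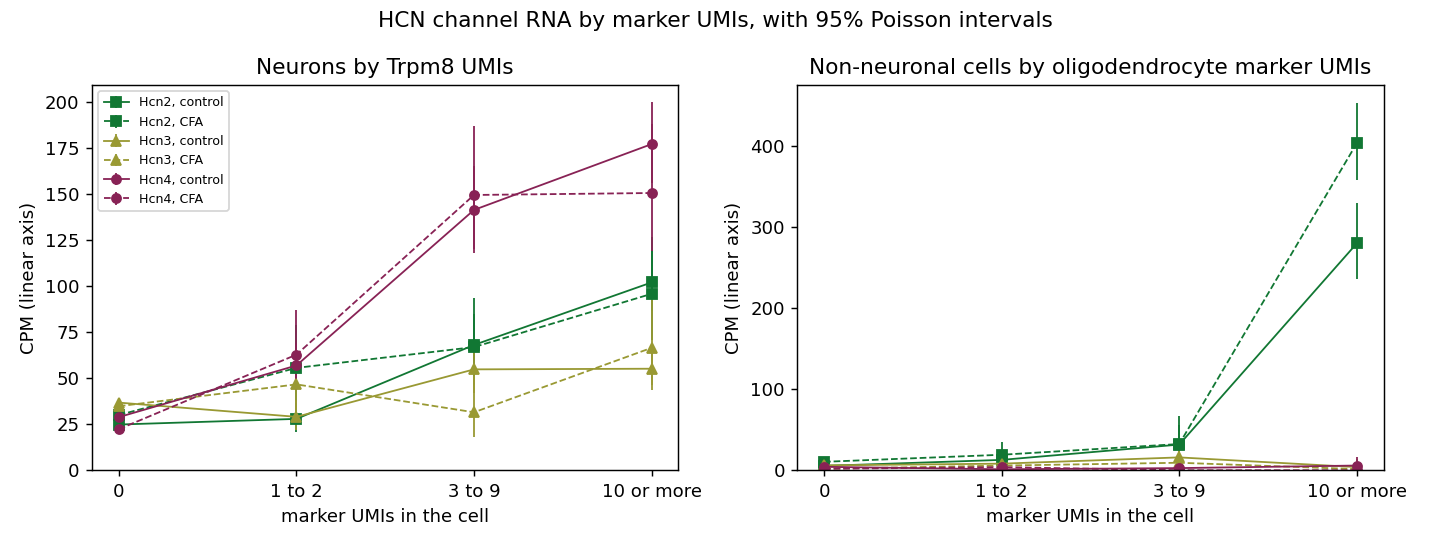
CPM of the 3 genes (linear axes) with 95% Poisson intervals, on the left in neurons grouped by their Trpm8 UMIs and on the right in non-neuronal cells grouped by their UMIs of 4 oligodendrocyte markers, for the control (solid) and CFA (dashed) libraries. Hcn4 rises from 28.8 to 177 CPM over the Trpm8 steps in the control library, and only Hcn2 rises over the oligodendrocyte steps, to 280 and 403 CPM.

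Hcn2, a cAMP-sensitive member like Hcn4 and studied in inflammatory pain, was highest among the neuron classes in Nefh+ Calca-low and Trpm8 neurons and not in the Calca+ or Mrgprd nociceptors. Nefh+ Calca-low neurons held 95 CPM (77.7 to 115, 104 UMIs) and 109 CPM (82.4 to 142, 56 UMIs), and Trpm8 neurons held 87.1 CPM (76.1 to 99.2, 225 UMIs) and 81.3 CPM (64.8 to 101, 83 UMIs). These classes did not differ from each other beyond counting error in either library. The P2ry1 class came next at 56.7 CPM (49.5 to 64.8) and 57.4 CPM (47.6 to 68.7), below the Trpm8 class in both libraries.

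The lower classes for Hcn2 were Calca+ Nefh-low at 20.3 CPM (18.2 to 22.7) and 22.6 CPM (19.2 to 26.4) and the Mrgprd class at 13.5 CPM (11.4 to 15.8) and 16.7 CPM (13 to 21.2). Control Nefh+ Calca+ neurons stood at 18.9 CPM (13.6 to 25.5) and their CFA counterparts at 45.8 CPM (29.9 to 67.1), where 12 of their 26 UMIs came from 1 of 7 cells. With both libraries summed, Nefh+ Calca-low neurons held 4.73 times (3.93 to 5.67) the Hcn2 level of Calca+ Nefh-low neurons. For the same ratio Hcn3 gave 0.807 (0.574 to 1.11) and Hcn4 gave 1.17 (0.893 to 1.5), both with an interval that holds 1. With cells thinned to one depth their log2 ratios were -2.32 and 1.02, against -0.31 and 0.22 as counted. The thinned Hcn3 value rests on very few UMIs, at 8.70 and 0 CPM in control and CFA Nefh+ Calca-low neurons. The lowest level of Hcn2 among the neurons examined was in Mrgpra3 neurons, a class of itch-sensing neurons gated at 10 Mrgpra3 UMIs after the class values were seen, at 6.79 CPM (4.35 to 10.1) in 43 control cells and 11.1 CPM (5.09 to 21.1) in 12 CFA cells.

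Hcn3, the member that responds little to cAMP, was the most even of the 3 genes across neurons. It was highest in Trpm8 neurons at 54.9 CPM (46.3 to 64.8) and 49.0 CPM (36.4 to 64.6) and in P2ry1 neurons at 54.1 CPM (47.0 to 62.0) and 49.2 CPM (40.1 to 59.8), which did not differ. The Mrgprd class followed at 40.3 CPM (36.6 to 44.2) and 40.9 CPM (34.9 to 47.7), and Calca+ Nefh-low neurons at 32.4 CPM (29.7 to 35.3) and 29.8 CPM (25.9 to 34.2). The step between these 2 classes exceeded counting error in both libraries, with log2 differences of 0.31 (0.13 to 0.50) and 0.46 (0.15 to 0.76). Nefh+ Calca-low neurons held 23.8 CPM (15.5 to 34.8) and 29.2 CPM (16.3 to 48.2), and Nefh+ Calca+ neurons 22.5 CPM (16.7 to 29.6) and 15.8 CPM (7.24 to 30.1). The Nefh+ classes rested on 9 to 50 UMIs of Hcn3, and no neighbours among the last 3 classes differed beyond counting error. Nefh+ Calca+ neurons did lie below Calca+ Nefh-low neurons in the control library, at log2 -0.53 (-0.98 to -0.11). In the CFA library that interval held 0, at -0.91 (-2.06 to 0.04).

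The classes thus held different mixes of the 3 genes. Of the UMIs of Hcn2, Hcn3 and Hcn4 together, Hcn4 made up 53.2% and 53.5% in Trpm8 neurons and 11.6% and 10.5% in P2ry1 neurons. Hcn3 made up 58.4% and 60.3% in Mrgprd neurons and 14.3% and 17.6% in Nefh+ Calca-low neurons. Hcn2 made up 57.1% and 65.9% in Nefh+ Calca-low neurons and 19.6% and 24.6% in Mrgprd neurons. Since capture may differ between the transcripts, these shares are read from class to class for 1 gene and not between genes within a class. All 3 genes were detected together in 37 of 49 and 16 of 25 Trpm8 neurons, and in 102 of 379 and 53 of 191 Calca+ Nefh-low neurons, at median depths of 49544 and 42117 UMIs in the former and 38238 and 33135 in the latter. No UMI of any of the 3 was found in 102 control and 58 CFA neurons.

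**Figure D3:**
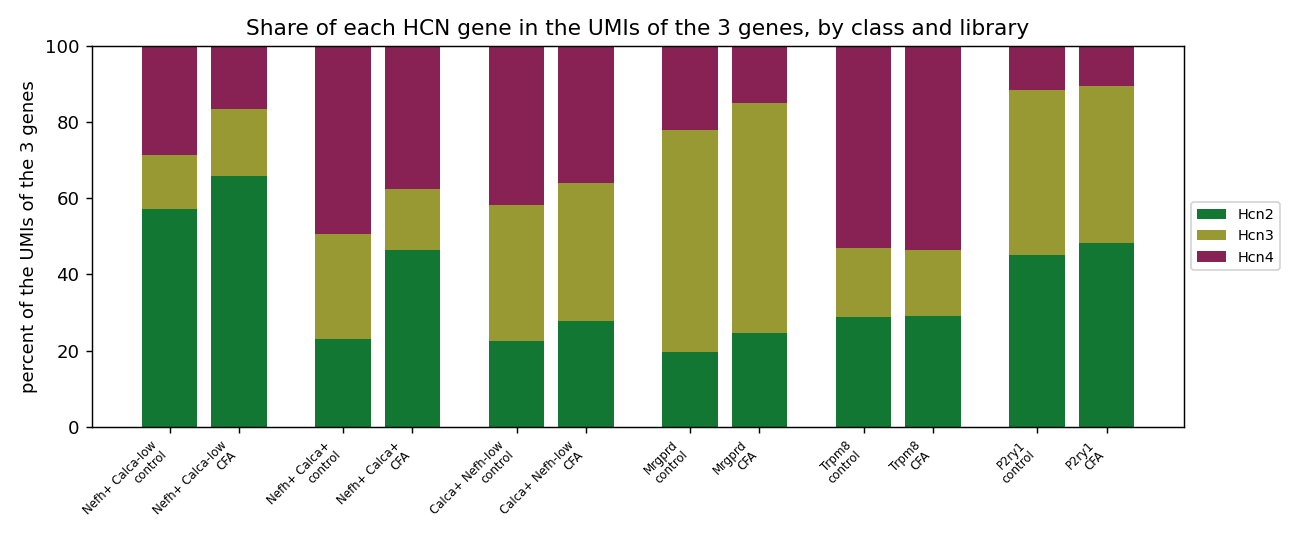
Percent of the UMIs of Hcn2, Hcn3 and Hcn4 that each gene contributes (stacked bars from 0 to 100%), by neuron class and library. The Hcn4 segment is tallest in Trpm8 neurons (53.2% and 53.5%), the Hcn3 segment in Mrgprd neurons (58.4% and 60.3%) and the Hcn2 segment in Nefh+ Calca-low neurons (57.1% and 65.9%).

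Set against all genes, passing a fold of 1.5 between a class and the other gated neurons was common, so the size and not the passing carries the description. In the Trpm8 class of the control library all 3 members passed 1.5-fold higher, Hcn3 only just at 1.51-fold, where 16.1% of 13508 genes with at least 50 counts did. In the CFA library 2 of the 3 passed, with Hcn3 at 1.39-fold, where 15.5% of 11669 genes did. In Nefh+ Calca-low neurons Hcn2 passed higher at 3.54-fold and 3.52-fold, where 18.7% and 17.7% of genes did, and Hcn3 passed lower in the control library at 0.623, where 22.3% did, but not in the CFA library at 0.802, where 23.3% of genes did. In Calca+ Nefh-low neurons Hcn2 passed lower at 0.573 and 0.527, where 12.7% and 13.6% of genes did. In the Mrgprd class Hcn2 and Hcn4 passed lower in both libraries, at 0.380 and 0.321 of the other neurons in the control library, where 22.9% of genes did, and at 0.421 and 0.272 in the CFA library, where 22.1% did. In the P2ry1 class Hcn2 passed higher at 2.21-fold and 1.93-fold and Hcn4 passed lower at 0.361 and 0.378. The share of genes higher there was 12.9% and 13.8%, and lower 21.9% and 21.5%. Hcn3 was 1.51-fold higher in the P2ry1 class of the control library and 1.44-fold in the CFA library.

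The highest Hcn2 level in the series, measured as CPM, was in glia. Cells outside the neuron gate that scored highest for Mog, Opalin, Ermn and Mobp, genes of myelin and myelinating oligodendrocytes, were called oligodendrocyte-like. They numbered 193 control and 166 CFA cells, at median depths of 1073 and 3167.5 UMIs, and held Hcn2 at 268 CPM (227 to 314, 152 UMIs) and 404 CPM (359 to 452, 297 UMIs). Both values lay above every neuron class of their library, with a log2 difference from Nefh+ Calca-low neurons of 1.5 (1.13 to 1.87) and 1.89 (1.47 to 2.33). CPM is a share of the RNA counted in a cell, and these cells were far shallower than neurons. Per cell they had a mean of 0.788 and 1.79 Hcn2 UMIs. Nefh+ Calca-low neurons had more, 4.52 and 4.31, as did Trpm8 neurons, 4.59 and 3.32. Oligodendrocyte-like cells were 2.88% and 4.53% of kept cells and held 11.4% and 32.5% of all Hcn2 UMIs, and 72.4% and 86.6% of those outside neurons.

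Hcn3 and Hcn4 were nearly missing from the same cells. Hcn3 had 2 and 1 UMIs (control and CFA), and Hcn4 had 3 and 0, where a count of 0 allows up to 4.08 CPM (3 counts). Neuronal RNA free in the suspension was gauged by Tubb3, the neuronal tubulin, which had 72 UMIs in the control oligodendrocyte-like cells. At the ratio of Hcn2 to Tubb3 in neurons these would bring 1.05 Hcn2 UMIs with them, against the 152 counted. Hcn2 was detected in 57 of 193 control cells (29.5%, 23.2 to 36.5%) and 94 of 166 CFA cells (56.6%, 48.7 to 64.3%), and after thinning to 500 UMIs in 12 of 166 (7.23%, 3.79 to 12.3%) and 20 of 158 (12.7%, 7.91 to 18.9%). In myelinating Schwann cells the thinned share was 0.140% and 0.322%.

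In non-neuronal cells grouped by their oligodendrocyte marker UMIs, Hcn2 rose from 5.36 CPM with none to 12.8 CPM with 1 to 2, 31.7 CPM with 3 to 9 and 280 CPM with 10 or more in the control library, and through 10.4, 19.1 and 32.3 to 403 CPM in the CFA library. Hcn3 and Hcn4 stayed at or below 15.8 CPM at every step. The steps from 3 UMIs up hold the oligodendrocyte-like cells, so they are not independent of the class level. Of the 139 and 141 cells with 10 or more, 129 and 133 were in that class, and these held all 145 and 291 Hcn2 UMIs of the step. Against the other 3 glial types together, Hcn2 in oligodendrocyte-like cells was 39.1-fold higher in the control library (log2 5.29, 4.76 to 5.85) and 28.6-fold higher in the CFA library (log2 4.84, 4.31 to 5.41), where 19.2% and 21.4% of genes passed 1.5-fold higher.

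In the other glia all 3 genes were low. Hcn2 had 20 and 16 UMIs in satellite glia (10.2 and 23.5 CPM), 9 and 8 UMIs in non-myelinating Schwann cells (11.2 and 23.2 CPM) and 8 UMIs in each library in myelinating Schwann cells (3.03 and 6.45 CPM). The 4 oligodendrocyte markers were found in them too, at 74.3 and 197 CPM in satellite glia, 173 and 313 CPM in non-myelinating and 146 and 238 CPM in myelinating Schwann cells. At the ratio of Hcn2 to these markers in oligodendrocyte-like cells, they would bring 2.12 and 10.3 CPM of Hcn2 to satellite glia, 4.92 and 16.4 CPM to non-myelinating and 4.17 and 12.5 CPM to myelinating Schwann cells. The observed Hcn2 level was at or under that amount in myelinating Schwann cells of both libraries. Hcn3 and Hcn4 read 17.4 and 16.2 CPM in control non-myelinating Schwann cells (14 and 13 UMIs), where 8 of the 13 Hcn4 UMIs came from 1 cell and Hcn4 was 6.33 CPM without it. Elsewhere in glia neither passed 12 CPM.

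Between the libraries, Hcn4 was lower and Hcn2 slightly higher in CFA neurons. Hcn4 differed by a log2 ratio of -0.31 (-0.46 to -0.17) in all neurons. Hcn2 was higher by 0.22 (0.07 to 0.37), and the interval for Hcn3 held 0, at -0.06 (-0.20 to 0.08). None of the 3 passed a fold of 1.5, which 4.49% of 14533 genes did upwards and 4.69% downwards, and the median gene lay at -0.00. With the same mix of neuron classes imposed on both libraries (added after the data were seen), the differences were -0.39 for Hcn4, 0.13 for Hcn2 and -0.07 for Hcn3.

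As counted, Hcn4 was lower in the CFA library in all 6 classes and in the ungated neurons. The direction turned in 3 of the classes under some alternatives, each resting on few cells or UMIs. The ratio reached 2.81 in Nefh+ Calca+ neurons (neurons with most glial RNA left out), where 23 control cells and 1 CFA cell remained. It reached 1.70 in the P2ry1 class (thinned cells), from 6.15 and 20 CPM in a random draw. The separate draw to the same depth used for the shares went the other way, with Hcn4 in 5 of 65 control and 1 of 40 CFA cells. In Nefh+ Calca-low neurons the ratio reached 0.53 (class thresholds doubled), with 13 and 6 cells. The interval excluded 0 in Calca+ Nefh-low neurons at -0.36 (-0.60 to -0.13), in the Mrgprd class at -0.57 (-1.10 to -0.07) and in the ungated neurons at -0.71 (-1.16 to -0.27). It held 0 in Nefh+ Calca-low neurons at -0.80 (-1.77 to 0.07), in Nefh+ Calca+ neurons at -0.13 (-0.89 to 0.57), in the P2ry1 class at -0.22 (-0.95 to 0.48) and in the Trpm8 class at -0.11 (-0.38 to 0.16), the class in which Hcn4 was highest. Of these groups, Hcn4 passed 1.5-fold lower in Nefh+ Calca-low neurons, where 9.32% of genes did, and in the ungated neurons, where 6.74% did. Without the cell richest in Hcn4 in each library (added after the data were seen), the ratio was -1.10 (-2.25 to -0.09) in Nefh+ Calca-low neurons. In Nefh+ Calca+ neurons it was then -1.15 (-2.33 to -0.16). The removed cells held 4 of 14 CFA and 7 of 52 control UMIs in the former class. In the latter they held 12 of 21 CFA and 9 of 90 control UMIs. Removing 1 cell takes more from the smaller CFA groups and by itself lowers the ratio, so these intervals were not counted as further differences. Whether the classes differ from each other in this change was not tested. Of single cells, Hcn4 was detected in 100 of 163 control Mrgprd neurons (61.3%, 53.4 to 68.9%) and in 20 of 63 CFA ones (31.7%, 20.6 to 44.7%), with median depths of 72356 and 62442 UMIs. Thinned to 5000 UMIs the shares were 5.59% (2.59 to 10.3%) and 3.17% (0.387 to 11%), which overlap at this depth.

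As counted, Hcn2 was higher in the CFA library in 6 of the 7 neuron groups, but under at least 1 alternative it fell below 0 in the Nefh+ Calca-low (to -0.26), Nefh+ Calca+ (to -0.08), Mrgprd (to -0.02) and P2ry1 (to -1.02) classes. Its interval excluded 0 in 1 group. That was the Nefh+ Calca+ class at 1.28 (0.51 to 2.02), with 27 control and 7 CFA cells, where 9.99% of genes passed 1.5-fold higher, and the interval held 0 without the cell richest in Hcn2 in each library, at 0.87 (-0.14 to 1.79). The cells of this class also differed between the libraries in other markers, with Mrgpra3 at 144 CPM (320 UMIs) and 0 CPM and Ntrk3 at 95.8 and 10.6 CPM, and the part of this in the Hcn2 difference was not tested. In the Trpm8 class Hcn2 stood at -0.10 (-0.48 to 0.27). The oligodendrocyte markers read 23.8 CPM in control neurons and 41.2 CPM in CFA neurons, which at the ratio of Hcn2 to these markers in oligodendrocyte-like cells would carry 0.678 and 2.15 CPM of Hcn2, within levels of 29.1 and 33.9 CPM. Hcn3 had an interval that held 0 in every neuron group, from -0.50 in Nefh+ Calca+ neurons to 0.30 in Nefh+ Calca-low neurons.

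In oligodendrocyte-like cells Hcn2 was higher in the CFA library by 0.59 on the log2 scale (0.30 to 0.88), a 1.51-fold difference, where 10.9% of 4342 genes passed 1.5-fold higher. These cells were also deeper in the CFA library, as given above, although CPM is already scaled to depth. With cells thinned to one depth in a random draw the difference was 0.27 on the log2 scale, given without an interval. The thinned shares given above, with overlapping intervals, rested on Hcn2 in 12 of 166 control and 20 of 158 CFA cells. A value at that depth rests on few UMIs, and the part of depth in the difference was not tested. Among the cells with at least 10 oligodendrocyte marker UMIs, 129 control and 133 CFA cells, Hcn2 stood at 289 CPM (244 to 340) and 411 CPM (365 to 461). In satellite glia the log2 difference was 1.20 (0.15 to 2.22) on 20 and 16 UMIs, beside the rise in oligodendrocyte markers given above.

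**Figure D4:**
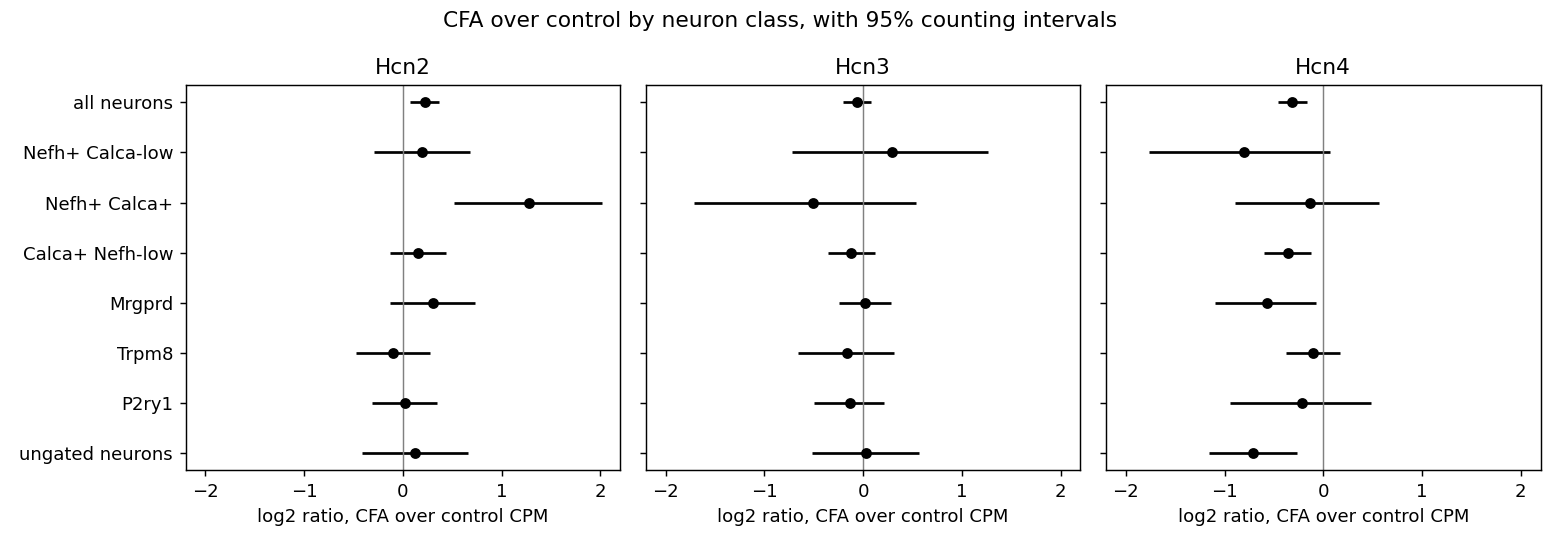
The log2 ratio of CFA over control CPM for each gene (1 panel each) in all neurons, the 6 neuron classes and the ungated neurons, with 95% counting intervals and a line at 0. Every Hcn4 point lies below 0 as counted, and its intervals in all neurons, Calca+ Nefh-low, Mrgprd and ungated neurons exclude 0, while every Hcn3 interval holds 0.

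The proteins that bind HCN channels were followed as a list of 13 gene symbols, which stand for 11 genes, all of them in the files. Mrvi1 and Lrmp were listed also under their newer symbols, Irag1 and Irag2. Pex5l encodes TRIP8b, the auxiliary subunit that sets how many HCN channels reach the surface and weakens their response to cAMP. Its level in neurons was highest in Trpm8 (204 and 174 CPM) and P2ry1 (208 and 189 CPM) neurons and lowest in Calca+ Nefh-low neurons (56.3 and 54.6 CPM). Oligodendrocyte-like cells held more, 438 and 423 CPM, which was 1.46 and 1.70 above the other glia on the log2 scale. Non-myelinating Schwann cells, at 281 and 209 CPM, also read above every neuron class. In the CFA library P2ry1 neurons were near them, at 189 CPM, and this order is given without an interval. Satellite glia held 182 and 156 CPM and myelinating Schwann cells 104 and 93.5 CPM. Kctd3, a partner described for HCN3, was also highest in oligodendrocyte-like cells, at 242 CPM in both libraries against 30.6 and 30.0 CPM in the other glia, although Hcn3 itself was nearly missing there.

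Nedd4l, a ubiquitin ligase that lowers surface channels, was low in Trpm8 neurons, at 88.2 and 64.7 CPM against 335 and 320 CPM in the other gated neurons. That was a log2 difference of -1.93 (-2.12 to -1.74) and -2.31 (-2.68 to -1.96). It was also low in Nefh+ Calca-low neurons (130 and 97.3 CPM) but not in P2ry1 neurons (347 and 371 CPM). Cav1, which encodes the membrane scaffold caveolin-1, had 3 UMIs in control and 0 in CFA Trpm8 neurons, against 31.4 and 8.79 CPM in Calca+ Nefh-low neurons, and was also low in P2ry1 neurons, at 1.56 and 0.483 CPM. In control Trpm8 neurons 1 of the 7 list genes with at least 50 counts was higher by 1.5-fold and 3 were lower. In CFA Trpm8 neurons these were 1 and 3 of 6. Of all genes 16.1% and 15.5% were higher and 22.5% and 25.6% lower by that fold (control and CFA). The list's median log2 difference was -0.34 and -0.52, beside -0.05 and -0.11 for all genes. In oligodendrocyte-like cells against the other glia 2 of 7 were higher and 4 lower in the control library, and 3 and 4 of 7 in the CFA library, with medians of -1.38 and -1.43 beside -0.19 for all genes in each. Of all genes 19.2% and 21.4% were higher and 34% and 35% lower there.

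Between the libraries, 7 of the 11 partners had at least 50 counts in all neurons. Grasp was higher in the CFA library, by 1.14 on the log2 scale (0.55 to 1.73, 52 and 50 UMIs), and Cav1 was lower, by -1.27 (-1.49 to -1.06, 1162 and 210 UMIs), 1 gene each way where 4.49% of all genes passed 1.5-fold upwards and 4.69% downwards. The other 5, Pex5l at -0.24 (-0.32 to -0.15) among them, stayed within 1.5-fold, and the list's median was -0.05.

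**Figure D5:**
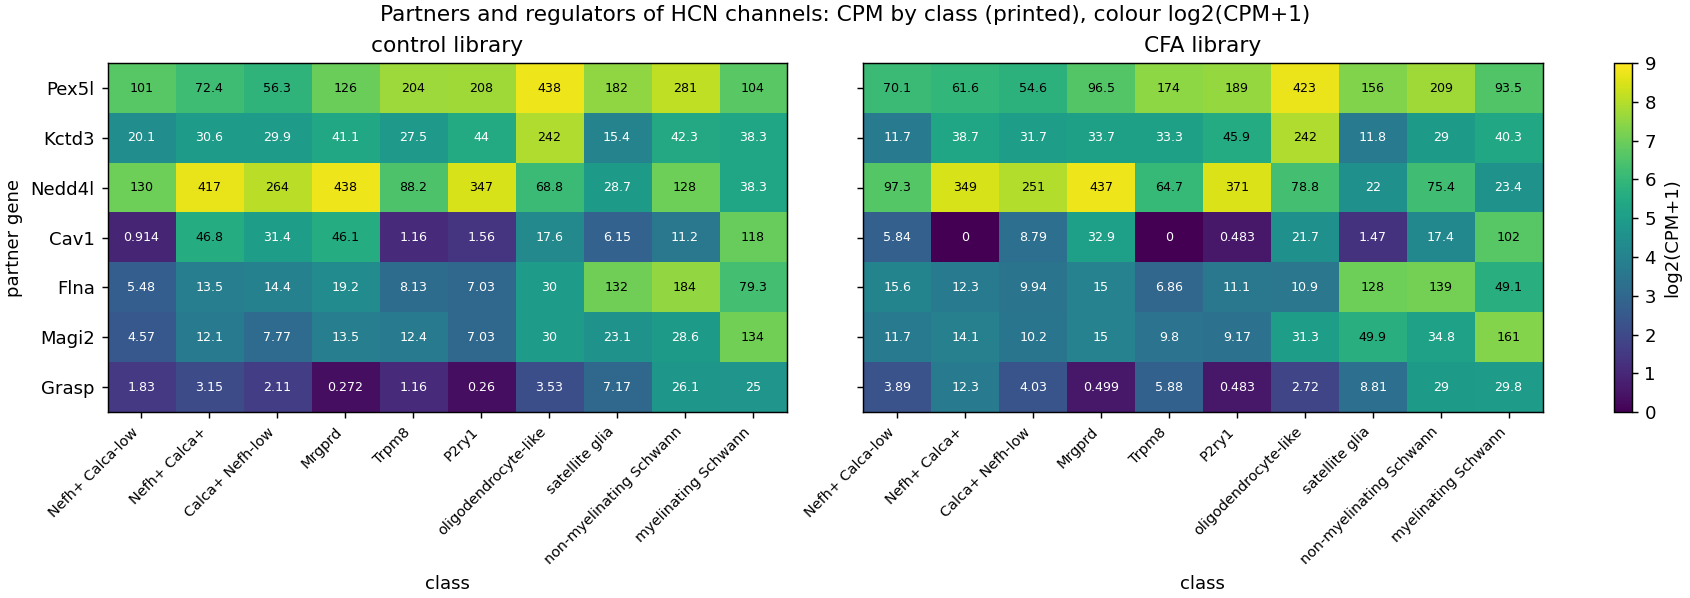
CPM (printed in each cell) and log2(CPM+1) (colour) of 7 genes for partners and regulators of HCN channels in the 6 neuron classes and 4 glial types, for the control library on the left and the CFA library on the right. Pex5l and Kctd3 are highest in oligodendrocyte-like cells, and Nedd4l is low in Trpm8 and Nefh+ Calca-low neurons. Cav1 is low in Trpm8 and P2ry1 neurons of both libraries, in control Nefh+ Calca-low neurons and in CFA Nefh+ Calca+ neurons.

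The cAMP pathway, which supplies the ligand of HCN channels, was followed through 14 genes of synthesis and its control and 21 of breakdown and kinase signalling. The synthesis list includes Gnai1, Gnai2 and Gnai3, G protein subunits that inhibit the cyclases. Its counts below therefore give no direction of cAMP synthesis. In Trpm8 neurons Adcy2, an adenylyl cyclase, was at 52.2 and 60.8 CPM against 15.0 and 18.2 CPM in the other gated neurons, a log2 difference of 1.80 (1.52 to 2.08) and 1.74 (1.31 to 2.14), while the cyclase Adcy5 was at 6.97 and 10.8 CPM against 73.7 and 87.0 CPM. The phosphodiesterase Pde8b was higher there by 2.05 (1.84 to 2.26) and 1.17 (0.80 to 1.52), and Prkar2b, a regulatory subunit of the cAMP-dependent kinase, was lower by -2.67 (-2.88 to -2.47) and -3.29 (-3.78 to -2.84). Other classes came near some of these levels. Nefh+ Calca-low neurons held Adcy2 at 40.2 and 44.8 CPM and Adcy5 at 12.8 and 21.4 CPM. Their Pde8b was at 38.4 and 79.8 CPM, against 96.0 and 74.5 CPM in Trpm8 neurons. Prkar2b was at 75.8 and 38.2 CPM in Trpm8 neurons and 59.3 and 46.3 CPM in P2ry1 neurons. Of the synthesis genes with enough counts, 2 of 13 were higher and 8 lower by 1.5-fold in the control Trpm8 class and 1 and 9 of 12 in the CFA Trpm8 class, and of the breakdown and kinase genes 5 and 5 of 19 and 5 and 6 of 18. Of all genes 16.1% were higher and 22.5% lower by that fold in the control Trpm8 class, and 15.5% and 25.6% in the CFA one.

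In Nefh+ Calca-low neurons, where Hcn2 was high, the calcium-sensitive cyclase Adcy1 stood at 32.0 and 64.2 CPM against 4.81 and 7.12 CPM in the other gated neurons, a log2 difference of 2.73 (2.17 to 3.27) and 3.17 (2.56 to 3.75). Among those others, P2ry1 neurons held Adcy1 at 33.6 and 35.2 CPM, so it was not particular to the Nefh+ Calca-low class. In Nefh+ Calca-low neurons the phosphodiesterase Pde4b was higher by 1.54 (1.13 to 1.92) and 1.64 (1.07 to 2.16), and Prkar2b was lower by -2.79 (-3.14 to -2.46) and -2.84 (-3.45 to -2.29). Of the synthesis genes with enough counts, 4 of 13 were higher and 5 lower by 1.5-fold in the control library. In the CFA library these were 3 and 6 of 12. Of the breakdown and kinase genes they were 3 and 9 of 19 and 6 and 5 of 18. Of all genes 18.7% and 17.7% were higher and 22.3% and 23.3% lower (control and CFA). In oligodendrocyte-like cells, Adcy5 stood at 109 and 110 CPM against 14.5 and 13.2 CPM in the other glia, and Prkacb, a catalytic subunit of the kinase, at 422 and 518 CPM against 96.2 and 94.8 CPM. There 2 of 9 synthesis genes were higher and 3 lower in the control library, and 2 and 4 of 8 in the CFA library. Of the breakdown and kinase genes these were 3 and 4 of 13 and 3 and 3 of 8. Of all genes 19.2% and 21.4% were higher and 34% and 35% lower (control and CFA). Between the libraries 1 of 13 synthesis genes and 1 of 19 breakdown and kinase genes passed 1.5-fold in all neurons, Adcy1 at 0.70 (0.39 to 1.00) and Pde4c at 0.79 (0.57 to 1.00), both higher in the CFA library, where 4.49% of 14533 genes passed upwards. The medians were 0.12 and 0.06.

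The genes whose levels ran most like each member were found by Pearson correlation of log2(CPM+1) over 12 points, the 6 classes in 2 libraries, among 8376 genes with at least 200 UMIs in the gated neurons of each library. The points of a library share its depth and preparation, and the correlations are given as a description. For Hcn2 they included Snap25 (r = 0.98), a synaptic fusion protein that is also part of the neuron gate, Rassf4 (0.97), Kcnab2 (0.96) and Abcg4 (0.96). For Hcn3 they were Ctif (0.95), Trp53bp1 (0.92), Mrm1 (0.92), Hivep2 (0.92) and Zfp444 (0.91). For Hcn4 they were Grxcr2 (0.99), Acot7 (0.96), Slc24a3 (0.95), Gsg1l (0.95) and Mif (0.95). Grxcr2 was at 274 and 351 CPM in Trpm8 neurons and at most 23.8 CPM in the other classes, and Gsg1l, an auxiliary subunit of AMPA receptors, at 171 and 137 CPM and at most 19.5 CPM.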

How the data were processed

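Single-cell RNA of the right TG was measured in 1 control and 1 CFA library. The matrices the authors deposited hold raw UMI counts for every gene in every cell, without normalization. The submitters' processing notes name fastp and the build GRCm38. The aligner, annotation and strand setting are not given in the sources used here. The 2 files held 48916096 and 22096268 UMIs. The members and gene lists were chosen with earlier results of these data known.

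Cells with under 150 genes, or with over 25% of their counts from mitochondrial genes, were left out. A neuron had at least 5 Tubb3 UMIs and at least 0.2% of its UMIs in Tubb3, Snap25, Uchl1 and Stmn2. Classes were then set on raw UMIs, and no neuron passed more than 1 of the Trpm8, Mrgprd and P2ry1 gates. Other cells took the marker list with the highest observed over expected UMIs. No doublet caller was run and doublets were kept, but alternatives left out the deepest 5% of neurons and neurons whose glial marker UMIs exceeded 3 times the median. The UMIs of a class were summed within each library and scaled to CPM. Levels have Poisson, shares Clopper-Pearson and ratios exact conditional binomial intervals at 95%. With 1 library per condition no test was made, and no p-value is given. A gene counted as past a fold of 1.5 needed at least 50 counts in both arms together. For shares, cells were thinned to 5000 UMIs (neurons) or 500 UMIs (glia), and shallower cells were left out, 41 control and 19 CFA neurons among them. The genes named are the members, the genes of the lists and the 5 genes most correlated with each member, of which 1 is not reported here. Positions and transcripts are from GENCODE M21, in which 37724 of the 39098 symbols were found.

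The ratio intervals were tested on simulated counts for CFA over control in all neurons. They held the true ratio for 95.5% of unchanged genes and 98.0% of 200 genes changed by 1 on the log2 scale, among 13668 genes. The simulated counts were Poisson, as the intervals assume, so this checks the calculation only. It does not cover the spread between cells or between libraries. The software was pandas 2.3.3, scipy 1.17.1 and numpy 2.4.6 under Python 3.11.15, and figures used matplotlib 3.10.9.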

Additional observations from a re-analysis of the deposited data

Results flagged for a closer look

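Hcn3 had 11 UMIs in the 277 endothelial cells of the control library, in 9 cells, a cell type that no comparison of the report used. At the ratio of Hcn3 to Tubb3 in neurons, the 39 Tubb3 UMIs of these cells would bring 0.733 UMIs of Hcn3. The level was 22.9 CPM (11.4 to 41.0). In the 153 endothelial cells of the CFA library Hcn3 had 0 UMIs, which allows up to 11.3 CPM (3 counts).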

How the results depend on the processing

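With 1 library per condition, counting error is the only error that can be given, and no replicate could be left out. No paired analysis was possible because each condition had 1 library and its number came from the order of deposit only. Of 117 values of the 9 main ratios under the alternatives, 104 stayed within the 95% interval of the reported value, 10 moved outside it and 3, all of Hcn2 in neurons over glia, turned a direction whose interval had excluded 0. The Hcn3 and Hcn4 ratios of Nefh+ Calca-low over Calca+ Nefh-low neurons, whose intervals held 0, also changed sign, over -2.32 to 0.32 and -0.10 to 1.02. The directions of the Hcn4 and Hcn2 differences between the libraries in all neurons held under every alternative run, at -0.39 to -0.15 and 0.13 to 0.35. The value nearest 0 for Hcn4, -0.15, came with cells thinned to one depth. Thinned cells also gave, for the ratio of Nefh+ Calca-low over Calca+ Nefh-low neurons, 1.88 for Hcn2, -2.32 for Hcn3 and 1.02 for Hcn4. The Hcn3 value among these rests on very few UMIs. With the class thresholds halved that ratio was 0.32 for Hcn3, against -0.31 as reported.

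The ratio of neurons over glia depended most on the choices. For Hcn2 it was -0.92 as reported and turned to 0.48 with every cell weighted equally, to 0.62 with thinned cells and to 1.76 without oligodendrocyte-like cells (an alternative chosen after seeing the data), and it was -1.15 with the stricter cell filter. For Hcn4 it was 3.32 as reported, 3.94 with every cell weighted equally, 3.94 with thinned cells and 1.64 with at least 20 Tubb3 UMIs per neuron, which gave 1.90 for Hcn3 against 2.85. That stricter neuron gate moves shallow neurons into the cells scored as glia. The Hcn2 difference between the libraries in Nefh+ Calca+ neurons, 1.28, was -0.085 with the class thresholds doubled, which left 4 cells in each library. Among the other ratios within classes 243 of 257 values stayed within their interval, which is wide in the small classes, as did 608 of 666 levels. All 6 shares thinned to 2000 UMIs moved, since fewer UMIs find fewer cells.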

Other observations

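Sst neurons, gated at 20 Sst UMIs after the class values were seen and known for itch signalling, numbered 11 control and 9 CFA cells. They held Hcn4 at 44.2 CPM (27.7 to 67.0) and 27.7 CPM (14.3 to 48.4), Hcn2 at 24.1 CPM (12.5 to 42.1) and 13.8 CPM (5.08 to 30.1), and Hcn3 at 26.1 CPM (13.9 to 44.7) and 23.1 CPM (11.1 to 42.4). Mrgpra3 neurons, also itch-sensing, held Hcn4 at 29.1 CPM (23.8 to 35.3) and 21 CPM (12.2 to 33.7) and Hcn3 at 24.6 CPM (19.7 to 30.4) and 29.7 CPM (19.0 to 44.2).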
